A study of Mus musculus with 9 samples.

Results

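The cells described here are a subcloned, Xpc-null line of mouse embryonic stem cells, set against floxed cells in which Xpc had not been deleted. The groups were taken from the array titles: 3 arrays titled Xpc_KO (null cells) and 3 titled Xpc_f/f-Tx (floxed cells), 6 of the 9 arrays of the series. In the floxed cells Xpc carries loxP sites that Cre recombinase can act on. The label -Tx is read here as cells without Tx, the treatment named +Tx on the arrays of induced deletion, and so as cells without deletion. The null cells are 1 subclone by their label, so a difference that comes with the missing gene cannot be told apart from one of that clone. The other 3 arrays, floxed cells 4 days after the deletion was induced, entered the fit only to share its estimate of the spread. They also counted in the choice of probes described below. Total RNA was labelled with Cy3 and hybridised to 1-colour Agilent arrays, 1 array for each sample. The labels do not say whether the arrays of a group came from separate cultures, so p-values measure the spread between these arrays, which may be technical.

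Xpc recognises distorting DNA damage and starts global nucleotide excision repair. With Rad23b and Cetn2 it is also known as a partner of Oct3/4 and Sox2 in the transcription of stem cell genes, and the title of the study names the C-terminal region of Xpc and that activity of Oct3/4 as its subject. Embryonic stem cells move between a naive state and a primed state close to the epiblast of the implanting embryo, and a few cells in a culture express genes of other lineages. Shape, adhesion and metabolism move with those states. SRF with its MRTF partners, and YAP with TEAD factors, turn on genes of the actin skeleton when cells spread or are under tension. Atf4 turns on genes of amino acid supply when amino acids are short or protein folding fails, and SREBP factors turn on sterol and fatty acid enzymes when sterols are low.

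Values are the scanner's processed signal divided by the 75th percentile of its array, in log2, so a difference of 1 is a factor of 2 and levels of different genes cannot be compared. Each gene was read from its brightest probe over all 9 arrays. A probe was kept where all 3 arrays of any group, the induced arrays included, showed it well above background. This left 19909 genes, which were tested with limma on all 9 arrays. A gene passed with a Benjamini-Hochberg adjusted p under 0.05, and "rose" and "fell" are used for genes that passed, in null against floxed cells. Differences are null minus floxed means of 3 arrays each, with the standard error of that fit.

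Xpc itself fell. Its probe, at chr6:91439856-91439915 in mm9 on the minus strand, read 0.59, 0.55 and 0.16 on the floxed arrays and -0.85, -1.53 and -1.37 on the null arrays. The groups did not overlap, and the null mean was 31.1% of the floxed mean once turned back from log2, a difference of -1.68 ± 0.20 (adjusted p = 0.00583, limma). The probe stayed above background on all 3 null arrays, and whether it lies in the deleted part is not known from the sources used here.

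Floxed array 3 stood apart from the other floxed arrays. On the first principal component of all genes, which held 47.3% of the variance, floxed arrays 1 and 2 lay at -32.6 and -33.9, floxed array 3 at 24.2 and the null arrays between 29.1 and 36.2. Its Xpc value was nevertheless on the floxed side. Slides moved with this: floxed arrays 1 and 2 shared a slide, floxed array 3 shared another with null array 3, and null arrays 1 and 2 lay on the third with the induced arrays. The part of the slide in the differences was not tested beyond these values. Several lists and leading genes are therefore also given without floxed array 3, or as null array 3 minus floxed array 3, the 1 pair that shares a slide. For the other lists and genes neither value is given. The 12 embryonic stem cell markers were all measured and 0 passed. Their summed linear signal, relative to the 75th percentile, was 1012 to 1113 on the floxed arrays and 956 to 1099 on the null arrays. Median local background was 29 to 46.5 and between 47.4% and 54.6% of the noncontrol spots of these 6 arrays lay well above it.

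More genes fell than rose, and the falls were larger. Of the genes tested 1.85% passed: 147 rose (0.738%) and 221 fell (1.11%). The median fall was -1.01 and the median rise 0.74, 114 genes fell and 29 rose by 1 or more, and 26 fell and 1 rose by 2 or more. In the pair on the shared slide the medians were -0.78 for the genes that fell and 0.56 for those that rose. The direction in that pair was fixed beforehand, since the groups of each gene that passed did not overlap. The groups did not overlap for 4663 genes in all (23.4%), 2388 higher (12%) and 2275 lower (11.4%) in null cells. The count of genes that passed depended on which arrays entered the fit. Without floxed array 3, 4943 passed (24.8%), 2603 of them higher (13.1%) and 2340 lower (11.8%) in null cells, including every gene that passed with all arrays. It was 92 without floxed array 1, 89 without floxed array 2, 107 without null array 1, 79 without null array 2 and 202 without null array 3. With the slide as a block, which leaves only the pair on the shared slide as the measure of the difference, 50 passed, 9 higher and 41 lower.

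The 49 gene lists held 1112 measured genes, of which 24 rose and 63 fell. The falls gathered in lists of cell shape, matrix, keratins and trophectoderm, and the rises were scattered over many lists at 1 to 3 genes each. The lists were chosen with earlier results of these data known, and some share members, so this gathering is a description and no test. Members of the lists of DNA replication, mitosis, break repair, base excision repair, chromatin, Mediator, respiration, tRNA synthetases and antioxidants numbered 341. Of these 0 passed with limma. An unadjusted limma p under 0.05 was found for 73 of the 341, a share similar to that over all genes (4542 of 19909). Without floxed array 3, 45 of the 341 rose and 36 fell, also near the shares over all genes (13.1% and 11.8%).

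**Figure D1:**
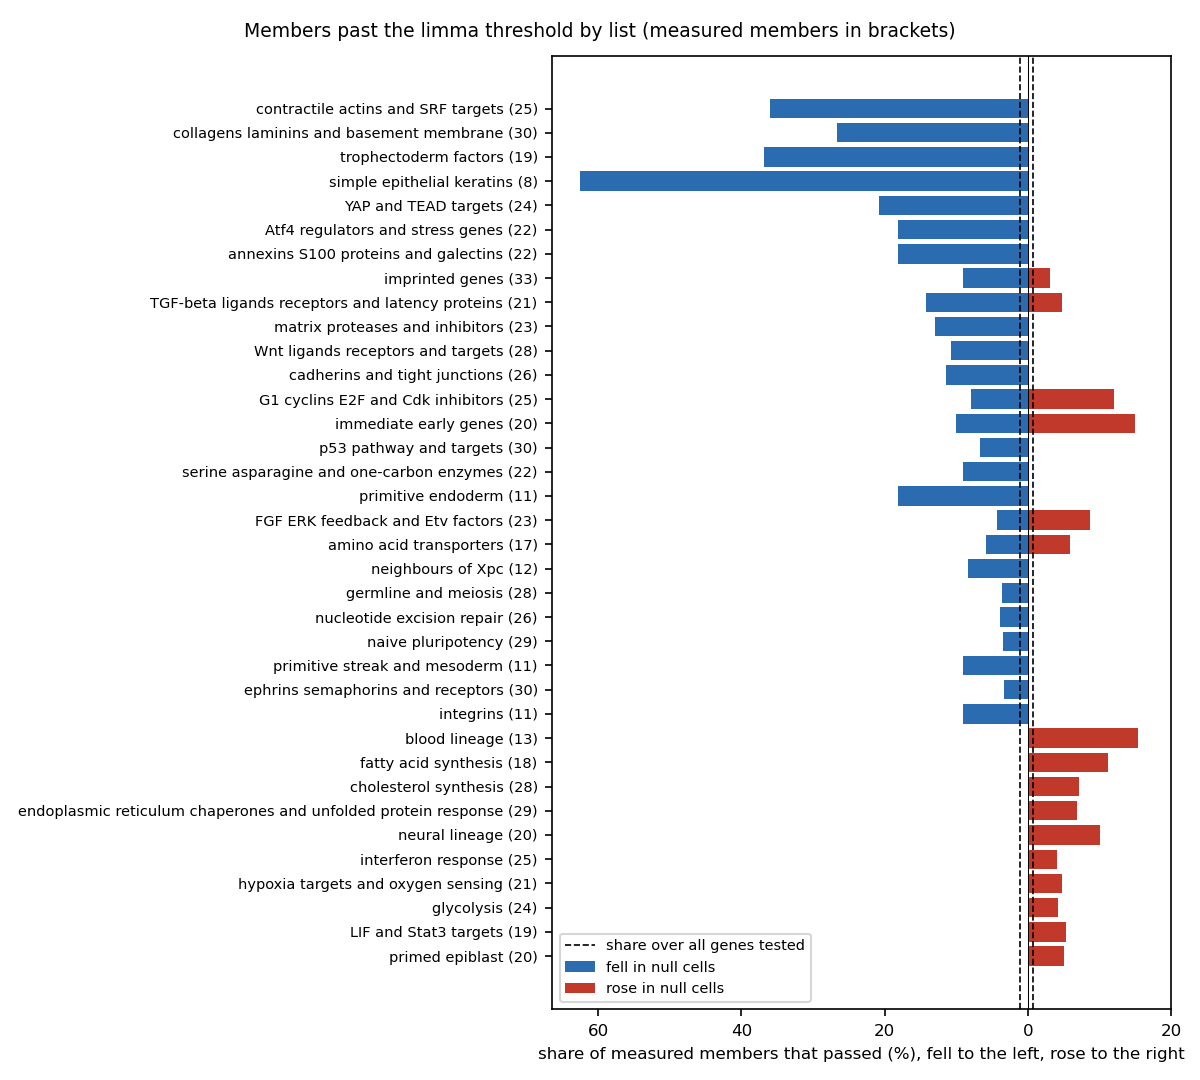
Share of the measured members of each list that passed (limma, adjusted p under 0.05), in percent, with genes that fell in null cells to the left and genes that rose to the right. Lists with 0 members passed are left out, and dashed lines mark the shares over all genes, 1.11% fell and 0.738% rose. Keratins (62.5% fell), trophectoderm factors (36.8% fell) and contractile genes (36% fell) reach farthest. The lists were chosen with earlier results of these data known, and the trophectoderm list shares keratins with the keratin list.

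A part of the actin-skeleton genes fell in null cells. Of 25 measured contractile genes and SRF targets 9 fell (36%) and 0 rose: the smooth and skeletal muscle actins Acta2 and Acta1, Ankrd1, the LIM-domain cofactor Fhl2, the actin-binding Tagln, Cald1 and Cnn2, the focal adhesion protein Tgfb1i1, and the tropomyosin Tpm1. The list's mean over members was 1.5, 1.51 and 1.40 on the floxed arrays and 0.67, 0.69 and 0.71 on the null arrays, so floxed array 3 stayed with its group. The median difference was -0.38, against 0.01 over all genes, -0.19 without floxed array 3 and -0.51 in the pair on the shared slide. In 8 of the 25 the null mean was the higher one. In 4 of these the groups did not overlap, against 12% higher without overlap over all genes. Fhl2 read 0.39, 0.39 and -0.02 on the floxed arrays and -2.04, -2.31 and -2.15 on the null arrays. Every null array lay below every floxed array, and the difference was -2.42 ± 0.17 (adjusted p = 0.00063) and -2.13 in the pair on the shared slide. Acta1 read 0.99, 0.82 and 0.16 on the floxed arrays and -2.51, -2.18 and -1.52 on the null arrays. It fell by 2.73 ± 0.33 (adjusted p = 0.00583), with the null arrays far below floxed array 3, the lowest of its group. Acta2, the actin of smooth muscle, differed by -3.55 ± 0.28 in all and by -2.66 in the shared-slide pair.

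SRF binds the CArG box, CC, then 6 bases of A or T, then GG. Within RefSeq promoters of GRCm38.p6, 250 bases before to 50 after a gene's start, it was found on either strand in 10 of the 32 promoters of this list (31.2%), against 1.63% of all 32851 promoters. Of 8 measured genes of the list with the box 3 fell, and Fhl1, Myl9, Srf, Vcl and Vil1 did not pass, so a similar share fell among genes with the box as in the whole list. The promoters of the 3 that fell are printed 5′ to 3′ with the box in capitals to show where it lies. Ankrd1 is shown beside them with GGAATG, the core that TEAD factors bind, in capitals. A match describes the letters and is no measured site, and Acta2 had no CArG match in this window. The list was drawn up with SRF targets, so its excess of the box says nothing of null against floxed cells.
Fhl2, chr1:43163912-43164211, minus strand: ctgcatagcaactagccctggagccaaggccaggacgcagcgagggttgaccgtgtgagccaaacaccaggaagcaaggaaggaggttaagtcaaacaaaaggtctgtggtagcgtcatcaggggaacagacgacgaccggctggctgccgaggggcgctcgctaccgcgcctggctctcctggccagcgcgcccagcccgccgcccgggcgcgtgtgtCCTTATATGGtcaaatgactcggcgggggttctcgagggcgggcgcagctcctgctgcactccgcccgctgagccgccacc
Acta1, chr8:123894726-123895025, minus strand: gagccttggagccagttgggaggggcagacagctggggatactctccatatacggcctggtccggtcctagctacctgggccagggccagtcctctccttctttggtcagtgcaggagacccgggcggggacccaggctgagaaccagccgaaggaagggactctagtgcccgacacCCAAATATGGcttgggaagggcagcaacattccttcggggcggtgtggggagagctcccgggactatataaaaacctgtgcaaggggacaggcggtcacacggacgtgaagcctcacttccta
Cnn2, chr10:79988350-79988649, plus strand: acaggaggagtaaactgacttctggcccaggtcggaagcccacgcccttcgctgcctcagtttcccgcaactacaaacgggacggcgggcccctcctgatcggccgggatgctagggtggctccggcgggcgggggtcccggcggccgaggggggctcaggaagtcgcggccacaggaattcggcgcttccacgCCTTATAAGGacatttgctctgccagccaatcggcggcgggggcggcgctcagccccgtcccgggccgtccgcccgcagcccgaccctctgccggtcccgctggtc
Ankrd1, chr19:36119795-36120094, minus strand: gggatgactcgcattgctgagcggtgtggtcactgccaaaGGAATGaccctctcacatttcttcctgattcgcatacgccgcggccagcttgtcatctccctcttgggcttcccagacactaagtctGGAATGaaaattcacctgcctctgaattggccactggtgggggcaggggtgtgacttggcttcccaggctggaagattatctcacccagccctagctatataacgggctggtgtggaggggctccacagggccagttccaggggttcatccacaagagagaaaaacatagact

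YAP and TEAD targets fell in part. Of 24 measured, 5 fell (20.8%) and 0 rose: Ankrd1, which the contractile list holds too, the growth factor Tgfb2, the tissue factor F3, the receptor kinase Axl and Ccn1, a matricellular protein. The median of the list was -0.16, and -0.16 in the pair on the shared slide. Ccn1 and Ccn2, the usual readouts of YAP, were both lower in null cells, by -0.74 each in the pair on the shared slide, but only Ccn1 passed. Ccn1 read 0.49, 0.49 and 0.74 on the floxed arrays and 0.01, -0.01 and 0.00 on the null arrays and fell by 0.58 ± 0.11 (adjusted p = 0.0445). Ccn2 read 1.93, 2.08 and 2.50 on the floxed arrays and 1.92, 1.78 and 1.76 on the null arrays, a difference of -0.35 ± 0.14 that did not pass (adjusted p = 0.193). The groups of Ccn1 did not overlap, and those of Ccn2 all but met, at null array 1 and floxed array 1. F3 fell by 1.29 ± 0.23 (adjusted p = 0.0337), though its other probe differed by only -0.51. Ankrd1 was above background on every floxed array and on no null array. For such a gene the fold is a lower bound, taken against the lowest signal of any probe above background on each null array, or the gene's own value where that was higher: Ankrd1 was at least 1.90-fold lower. GGAATG was found in 13 of the 25 promoters of this list (52%), against 14.7% of all promoters, on either strand. The list was drawn up as TEAD targets, so that excess says nothing of null against floxed cells. Of 11 measured genes of the list with GGAATG 3 fell.

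Matrix genes fell with them. Of 30 collagens, laminins and other basement membrane genes 8 fell (26.7%) and 0 rose, among them the fibrillar collagens Col1a1, Col1a2 and Col3a1, the basement membrane collagens Col4a1 and Col4a2, Col7a1 and Thbs1, an adhesive glycoprotein. Col4a2 read 0.00, 0.08 and -0.51 on the floxed arrays and -1.64, -1.90 and -1.93 on the null arrays, a difference of -1.68 ± 0.16 (adjusted p = 0.00175). Its partner chain Col4a1 read 0.36, 0.44 and -0.07 on the floxed arrays and -0.44, -0.46 and -0.64 on the null arrays, a smaller difference of -0.76 ± 0.14 (adjusted p = 0.0349). In both genes floxed array 3 was the lowest floxed array and above every null array. Thbs1 fell by 2.18 ± 0.21, without overlap of the groups. Col3a1 was above background on no null array and was at least 1.88-fold lower. The list's mean was 1.30, 1.32 and 1.12 on the floxed arrays and 0.78, 0.83 and 0.79 on the null arrays, and its median -0.21, -0.38 without floxed array 3 and -0.09 in the shared-slide pair. In 12 of the 30 the null mean was the higher one. Over all symbols of the Col type, 6 of 20 fell.

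Secreted regulators of matrix turnover followed in part. Among 23 matrix proteases and inhibitors 3 fell (13%) and 0 rose, among them the serine protease Prss23 and the metalloprotease inhibitor Timp2. Timp2 read 1.21, 1.37 and 0.62 on the floxed arrays and -0.72, -0.20 and -0.28 on the null arrays, a difference of -1.46 ± 0.21 (adjusted p = 0.0132). Mmp2 and Mmp11 differed by 0.17 ± 0.11 and -0.18 ± 0.17 and did not pass. Of 19 Serpin genes 3 fell, among them Serpinf1 (pigment epithelium-derived factor) and Serpinh1, the chaperone of collagen folding. Serpinh1 read 2.06, 2.19 and 1.59 on the floxed arrays and 0.76, 0.93 and 0.73 on the null arrays and fell by 1.14 ± 0.19 (adjusted p = 0.0235). Of 11 integrins only Itga7 passed, at -0.55 ± 0.10, while Itga5, a fibronectin receptor chain, differed by 0.18 ± 0.12.

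Fibroblast markers moved with these lists. Of 18 markers 10 were measured, 6 fell, and 8 (Twist1, Prrx1, Pdgfra, Pdgfrb, Dcn, Lum, Postn and Fap) were not well above background on all arrays of any group. The summed linear signal of the measured markers was 45.8 to 49.9 on the floxed arrays, 23.7 to 25.1 on the null arrays and 33.9 to 40.4 on the induced arrays. Acta2, Tagln, Col1a1, Col1a2 and Col3a1 stand in this marker list and in the lists above. In bulk RNA fewer cells of a type and less RNA per cell cannot be told apart, and the part of such cells in the falls was not tested.

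Most members of the list of simple epithelial keratins fell. Of 8 measured 5 fell (62.5%): Krt8 and Krt18, which pair into the first filaments of the embryo, Krt19, Krt7 and Krt42. In 1 of the 8 the null mean was 1.46 higher, without overlap of the groups, and it did not pass. Without floxed array 3, 5 fell and 1 rose, against 11.8% and 13.1% of all genes. The list's mean was 1.19, 1.18 and 1.20 on the floxed arrays and 0.27, 0.43 and 0.55 on the null arrays. Its median was -0.91, -1.01 without floxed array 3 and -0.65 in the shared-slide pair. Krt8 read 4.52, 4.44 and 4.39 on the floxed arrays and 2.74, 2.78 and 2.90 on the null arrays. The null mean was 32% of the floxed mean, a difference of -1.64 ± 0.13 (adjusted p = 0.000762) and of -1.49 in the shared-slide pair. Krt18 read 6.03, 6.06 and 5.48 on the floxed arrays and 3.88, 3.95 and 4.16 on the null arrays and fell by 1.86 ± 0.19 (adjusted p = 0.00298). Krt19 read 2.19, 1.99 and 2.09 on the floxed arrays and 0.44, 0.53 and 0.61 on the null arrays, a difference of -1.56 ± 0.11 (adjusted p = 0.00063). The groups did not overlap in any of these, and floxed array 3 was the lowest floxed array for Krt8 and Krt18. Over all 21 Krt symbols 6 fell and the median was -0.16. The 5 keratins above are among the 6.

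Calcium-dependent membrane proteins and desmosomes gave a mixed picture. Among 22 annexins, S100 proteins and galectins 4 fell (18.2%) and 0 rose. Anxa1 read 3.15, 3.22 and 2.64 on the floxed arrays and 1.06, 1.53 and 1.09 on the null arrays. Anxa3 read 0.79, 0.91 and 0.47 on the floxed arrays and -0.97, -1.79 and -1.19 on the null arrays. Anxa5 read 1.79, 1.97 and 1.51 on the floxed arrays and 0.48, 0.41 and 0.33 on the null arrays. No null array reached a floxed array in any of them. These annexins bind membrane phospholipids, and they fell by 1.78 ± 0.20, 2.04 ± 0.23 and 1.35 ± 0.13 (adjusted p = 0.00431, 0.00428 and 0.00175). Anxa2 read 3.37, 3.40 and 3.91 on the floxed arrays and 3.59, 3.87 and 3.74 on the null arrays and did not pass, with a difference of 0.17 ± 0.15 (adjusted p = 0.525). Lgals1, a galectin, fell by 0.96 ± 0.15. Among 26 cadherins and junction genes 3 fell (11.5%): Dsp, which ties keratin filaments to desmosomes, the desmosomal cadherin Dsc2 and Cdh11, a mesenchymal cadherin. Dsp read 1.01, 0.98 and 1.05 on the floxed arrays and 0.00, -0.17 and -0.16 on the null arrays, a difference of -1.13 ± 0.09 (adjusted p = 0.000762). Dsc2 was above background on no null array and at least 1.54-fold lower. Cdh1, the cadherin of epithelial and stem cells, differed by 0.14 ± 0.11 and Cdh2 by 0.28 ± 0.18, and neither passed. The lists of contractile genes, collagens, keratins and annexins together held 85 genes, of which 26 fell and 0 rose.

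**Figure D2:**
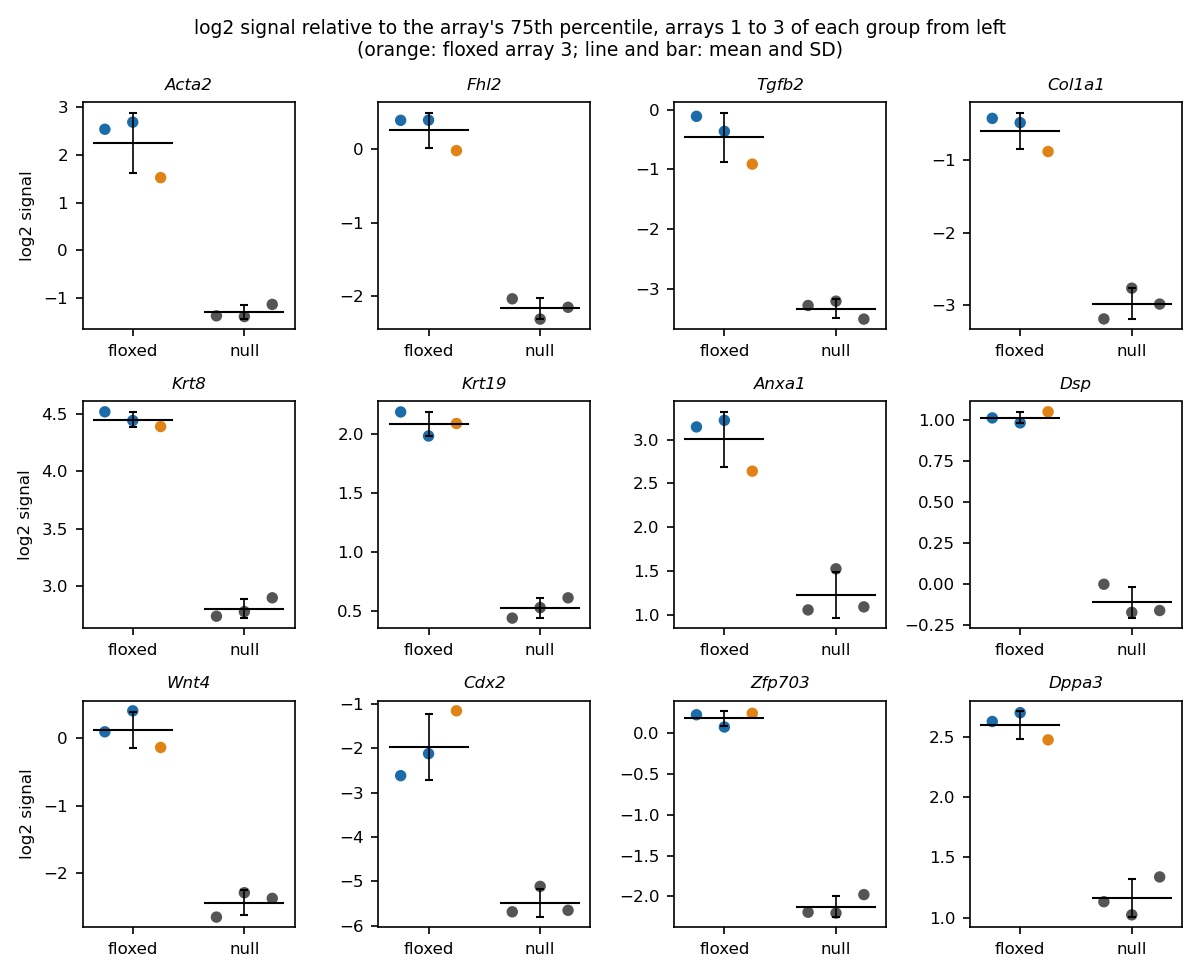
Log2 signal relative to the array's 75th percentile of 12 genes that fell, for floxed arrays 1 to 3 and null arrays 1 to 3 from left to right, with floxed array 3 in orange and the mean and SD of each group in black. Scales differ between panels. In each panel the 3 null arrays lie below all 3 floxed arrays, and floxed array 3 lies nearer to the floxed mean than to the null mean.

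Signalling ligands changed singly. Of 21 TGF-beta ligands, receptors and latency proteins 3 fell and 1 rose. Tgfb2 read -0.11, -0.36 and -0.91 on the floxed arrays and -3.28, -3.21 and -3.51 on the null arrays, a difference of -2.87 ± 0.20 (adjusted p = 0.00063) with 1 of 3 null arrays above background, while Tgfb1 differed by 0.42 ± 0.13 and did not pass. Of the activin chains, Inhbb rose by 0.82 ± 0.16 (adjusted p = 0.0445). Inhba fell, but it was above background on only 1 of 3 floxed arrays and no null array and is given no fold. Of 28 Wnt genes 3 fell, the ligands Wnt4 and Wnt7b and the Wnt target Ccn4, which was at least 5.0-fold lower and above background on no null array. Wnt4 read 0.09, 0.40 and -0.14 on the floxed arrays and -2.65, -2.29 and -2.37 on the null arrays, with the null mean at 17% of the floxed mean. Nodal and Lefty signalling (11 genes) and BMP and Id signalling (17 genes) had 0 genes past the limma threshold. Nodal, Lefty1 and Bmp4 differed by 0.15 ± 0.14, -0.17 ± 0.17 and 0.00 ± 0.22. Bmp1 differed by 0.07 ± 0.15 on its brightest probe, but its other 2 probes gave -1.73 and -1.0. Of 30 ephrins, semaphorins and receptors only Efna5 passed, at -0.88 ± 0.16.

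Transcripts of the trophectoderm, the outer layer of the blastocyst, were lower. Of 19 trophectoderm genes 7 fell (36.8%), 4 of them the keratins above, with the factors Cdx2, Gata3 and Hand1. The median was -0.27, -0.37 without floxed array 3 and -0.33 in the shared-slide pair. Gata3 read -2.83, -2.72 and -2.04 on the floxed arrays and -3.43, -4.94 and -4.48 on the null arrays, a difference of -1.75 ± 0.36 (adjusted p = 0.0497), with 1 of 3 null arrays above background. Hand1 read -2.94, -2.38 and -2.73 on the floxed arrays and -3.68, -4.16 and -4.47 on the null arrays, a difference of -1.42 ± 0.21 (adjusted p = 0.016), also with 1 of 3 null arrays above background. Cdx2 was above background on no null array and at least 3.0-fold lower, with its highest value on floxed array 3. Eomes, another factor of this layer, did not follow: it read -1.16, -0.89 and 0.23 on the floxed arrays and -0.38, -0.06 and -0.04 on the null arrays, overlapping between the groups. The separate list of 8 trophoblast markers had 6 measured and 4 fell, but its summed linear signal did not part the groups: 14 to 29.0 on the floxed arrays, with floxed array 3 lowest, and 15.0 to 15.9 on the null arrays. Elf5 and Plac1 were not well above background on all arrays of any group, and the part of trophoblast-like cells in the falls was not tested.

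Of genes of other lineages 1 or 2 passed per list, each list too short for its share to be read closely against the 1.11% that fell and 0.738% that rose over all genes. In the primitive endoderm list 2 of 11 fell (18.2%), the collagens Col4a1 and Col4a2 already given, while Gata4 and Hnf4a differed by 0.04 ± 0.18 and 0.28 ± 0.38 and did not pass. Gata6, Sox17, Sox7, Foxa2 and Dab2 were not well above background on all arrays of any group. In the list of primitive streak and mesoderm 1 of 11 fell (9.09%), Hand1, and of 20 neural genes 2 rose (10%). These were Nes, a filament protein of neural progenitors, at 0.59 ± 0.11 (adjusted p = 0.0363), and the homeobox gene Gbx2 at 0.74 ± 0.14 (adjusted p = 0.04). The neural factors Pax6 and Sox1 differed by -0.35 ± 0.14 and 0.17 ± 0.16 and did not pass. Of 28 germline genes only Stra8, which opens meiosis, passed (3.57%): it read 0.37, 0.03 and -0.39 on the floxed arrays and -1.27, -1.48 and -1.08 on the null arrays and fell by 1.28 ± 0.20 (adjusted p = 0.0213).

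Imprinted genes did not move as a class. Of 33 measured 3 fell and 1 rose, with a median of 0.09 that turned to -0.14 in the shared-slide pair. Igf2, a paternally expressed growth factor, was above background on no null array and at least 1.81-fold lower, and its reciprocally imprinted neighbour H19 read -0.68, -0.78 and -0.22 on the floxed arrays and -0.03, 0.01 and -0.14 on the null arrays and did not pass. Grb10, a growth inhibitor, differed by -0.48 ± 0.10 (adjusted p = 0.046) and Ndn by -0.65 ± 0.13 (adjusted p = 0.0455). Mirg, a maternally expressed RNA of the Dlk1-Dio3 cluster, read 2.93, 2.92 and 2.97 on the floxed arrays and 3.54, 3.75 and 3.58 on the null arrays, a rise of 0.68 ± 0.14 (adjusted p = 0.0452).

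Among 29 genes of naive pluripotency only Dppa3 passed. The median of the list was -0.10, became -0.24 without floxed array 3 and turned to 0.12 in the shared-slide pair. Without floxed array 3, 13 of the 29 fell, against 11.8% of all genes, and 4 rose, near the 13.1% of all genes. In the shared-slide pair 20 were higher on the null array. Dppa3 guards methylated DNA in the early embryo, and it read 2.63, 2.70 and 2.47 on the floxed arrays and 1.13, 1.02 and 1.34 on the null arrays. All null arrays lay below all floxed arrays, and the difference was -1.44 ± 0.16 (adjusted p = 0.00419) and -1.14 in the shared-slide pair. Pou5f1 and Sox2 differed by -0.55 ± 0.28 and -0.18 ± 0.12 and did not pass. Of 20 primed epiblast genes 1 rose, the ETS factor Etv4, which read 2.42, 2.45 and 2.94 on the floxed arrays and 3.38, 3.56 and 3.54 on the null arrays, a rise of 0.89 ± 0.14 (adjusted p = 0.022). The list as a whole parted the floxed arrays rather than the groups. Its mean was 1.18 and 1.19 on floxed arrays 1 and 2 but 2.11 on floxed array 3, against 2.12, 2.20 and 2.10 on the null arrays. Its median difference of 0.64 became 0.81 without floxed array 3 and 0.08 in the shared-slide pair. Fgf5, the usual marker of that state, read -0.73, -0.69 and 1.85 on the floxed arrays and 1.29, 1.16 and 1.18 on the null arrays. Floxed array 3 was above every null array, and the difference did not pass (adjusted p = 0.3). Otx2, in contrast, read 4.66, 4.66 and 4.66 on the floxed arrays and 4.97, 5.13 and 5.03 on the null arrays, with equal floxed arrays and a difference of 0.38 ± 0.09 that did not pass (adjusted p = 0.074).

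Genes of FGF-ERK signalling mostly lay higher in null cells, though genes passed in both directions. The null mean was the higher one in 17 of 23 genes, 8 of them without overlap of the groups, against 12% over all genes. It was lower in 6, 1 of them without overlap, against 11.4%. The list's mean was 0.88, 1.02 and 1.32 on the floxed arrays and 1.38, 1.38 and 1.36 on the null arrays. Its median of 0.20 was 0.08 in the shared-slide pair. With limma 2 of the 23 rose, Etv4 and Spry4, an inhibitor that the pathway itself induces, and Phlda1 fell. Spry4 read -0.19, -0.26 and -0.30 on the floxed arrays and 0.43, 0.25 and 0.56 on the null arrays, a rise of 0.67 ± 0.11 (adjusted p = 0.0286) with floxed array 3 the lowest of all. The ERK phosphatases Dusp6 and Dusp4 differed by 0.34 ± 0.12 and -0.40 ± 0.20 and did not pass. Of 20 immediate early genes 3 rose and 2 fell: Egr1, Ier3 and the small Maf protein Maff rose, and the AP-1 family members Atf3 and Fosl2 fell. Ier3 read -0.60, -0.72 and -0.47 on the floxed arrays and 0.14, 0.19 and 0.10 on the null arrays, a rise of 0.74 ± 0.10 (adjusted p = 0.00949). Fosl2 read -1.37, -1.79 and -1.98 on the floxed arrays and -2.99, -3.82 and -2.77 on the null arrays and fell by 1.48 ± 0.29 (adjusted p = 0.0408), with 2 of 3 null arrays above background. Of 19 LIF and Stat3 targets only Gbx2 passed, while the receptor chains Lifr and Il6st differed by 0.42 ± 0.11 and -0.02 ± 0.18.

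Atf4 and its stress genes were lower in null cells, and most of that difference lay between floxed array 3 and the other floxed arrays. Of 22 measured 4 fell (18.2%): Atf4, Atf3, the lipoprotein receptor Vldlr and the secreted Stc2. Without floxed array 3, 18 of the 22 fell, against 11.8% of all genes. The list's mean was 2.25 and 2.27 on floxed arrays 1 and 2, 1.14 on floxed array 3 and 0.84, 0.84 and 0.74 on the null arrays. Its median of -0.96 became -1.42 without floxed array 3 and -0.25 in the shared-slide pair. Atf4 read 7.0, 7.11 and 6.08 on the floxed arrays and 5.36, 5.48 and 5.41 on the null arrays, a difference of -1.31 ± 0.25 (adjusted p = 0.0399) and of -0.67 in the shared-slide pair. Atf3 read -1.28, -1.32 and -1.82 on the floxed arrays and -2.89, -3.51 and -3.80 on the null arrays, a difference of -1.93 ± 0.24 (adjusted p = 0.00758), with floxed array 3 nearer to its group and 1 of 3 null arrays above background. Vldlr read -0.43, -0.42 and -2.04 on the floxed arrays and -2.71, -3.28 and -3.56 on the null arrays, a difference of -2.22 ± 0.41 (adjusted p = 0.0365) with floxed array 3 between the other floxed arrays and the null arrays and 1 of 3 null arrays above background. Stc2 fell by 0.79 ± 0.14 (adjusted p = 0.0308).

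Atf4 binds with C/EBP partners at TGATGNAA. These letters were found, on either strand, in 8 of the 26 promoters of this list (30.8%), in 5 of the 17 of the cytosolic tRNA synthetases (29.4%) and in 4 of the 22 of the serine and one-carbon enzymes (18.2%), against 3.97% of all promoters. The lists were drawn up around Atf4 and amino acid supply, so that excess says nothing of null against floxed cells. Of 7 measured genes of the Atf4 list that hold TGATGNAA 2 fell, and their promoters are printed with it in capitals.
Atf3, chr1:191183284-191183583, minus strand: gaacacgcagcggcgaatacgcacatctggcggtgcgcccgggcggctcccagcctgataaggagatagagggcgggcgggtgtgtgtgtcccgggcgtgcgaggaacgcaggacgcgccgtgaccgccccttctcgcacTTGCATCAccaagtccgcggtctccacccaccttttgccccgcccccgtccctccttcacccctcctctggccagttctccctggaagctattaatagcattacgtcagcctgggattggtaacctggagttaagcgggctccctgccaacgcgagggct
Vldlr, chr19:27216770-27217069, plus strand: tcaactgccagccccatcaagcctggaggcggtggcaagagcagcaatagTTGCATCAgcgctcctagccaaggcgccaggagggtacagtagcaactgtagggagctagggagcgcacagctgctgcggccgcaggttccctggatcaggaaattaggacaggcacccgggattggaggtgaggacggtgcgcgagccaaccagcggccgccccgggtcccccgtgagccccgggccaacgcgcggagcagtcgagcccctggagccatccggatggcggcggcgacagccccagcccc

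Among enzymes and carriers of amino acid supply, floxed array 3 again lay near the null arrays for several genes. Of 22 enzymes of serine, asparagine and one-carbon metabolism 2 fell, the mitochondrial enzymes Mthfd2 and Pck2. Mthfd2 read 2.69, 2.71 and 1.94 on the floxed arrays and 1.44, 1.45 and 1.45 on the null arrays, a difference of -1.0 ± 0.20 (adjusted p = 0.0432). Psat1, of serine synthesis, read 5.79, 5.98 and 4.49 on the floxed arrays and 4.13, 4.29 and 4.16 on the null arrays, with floxed array 3 close to the null arrays, and did not pass (adjusted p = 0.096). Pck2 was above background on 2 of 3 floxed arrays and no null array and is given no fold. Of 17 amino acid transporters 1 fell and 1 rose: the glycine carrier Slc6a9 differed by -1.68 ± 0.34 and Slc43a1, a carrier of neutral amino acids, by 0.64 ± 0.11. The cationic carrier Slc7a1 read 3.72, 3.74 and 2.54 on the floxed arrays and 2.10, 2.25 and 2.02 on the null arrays and did not pass (adjusted p = 0.0683), and Slc7a3 differed by only 0.18 ± 0.09. Among 23 cytosolic tRNA synthetases 0 passed with limma. In 9 of the 23 the null arrays lay below all floxed arrays, against 11.4% of all genes. Without floxed array 3, 10 fell, against 11.8% of all genes. Cars and Aars, which charge cysteine and alanine tRNAs, differed by -1.19 ± 0.31 and -0.78 ± 0.22. Their mitochondrial counterparts Cars2 and Aars2 differed by 0.02 ± 0.09 and 0.13 ± 0.09. Chaperones of the endoplasmic reticulum did not fall with Atf4: of 29 genes 2 rose, the disulfide isomerase Pdia4 (0.76 ± 0.14) and the cochaperone Sdf2l1 (0.54 ± 0.11). Hspa5 (BiP) differed by 0.40 ± 0.12 and did not pass (adjusted p = 0.108).

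Sterol and fatty acid genes lay higher in null cells, and for the sterol list floxed array 3 was again near the null arrays. Of 28 genes of cholesterol synthesis 27 had a higher mean in null cells. In 19 of them the groups did not overlap, against 12% higher without overlap over all genes. With limma 2 passed: Msmo1, an enzyme of sterol demethylation, and Insig1, the sterol-regulated brake of SREBP. The list's mean was 1.20, 1.24 and 1.75 on the floxed arrays and 1.96, 1.98 and 1.86 on the null arrays. Its median of 0.58 was 0.77 without floxed array 3 and 0.12 in the shared-slide pair. Without floxed array 3, 21 of the 28 rose, against 13.1% of all genes. Insig1 read -0.62, -0.70 and -0.14 on the floxed arrays and 0.41, 0.45 and 0.34 on the null arrays, a rise of 0.89 ± 0.16 (adjusted p = 0.0319). Hmgcs1 read 3.67, 3.83 and 4.55 on the floxed arrays and 4.88, 4.83 and 4.72 on the null arrays and did not pass (adjusted p = 0.0832). Of 18 fatty acid genes 2 rose, the desaturases Scd1 and Scd2. That list's mean was 0.76, 0.83 and 0.90 on the floxed arrays and 1.10, 1.10 and 1.0 on the null arrays, with floxed array 3 nearer to its own group. Scd1 read -1.40, -1.27 and -0.45 on the floxed arrays and 0.22, 0.08 and 0.06 on the null arrays, a rise of 1.16 ± 0.22 (adjusted p = 0.0404). Scd2 read 3.72, 3.68 and 4.40 on the floxed arrays and 4.91, 4.88 and 4.71 on the null arrays, a rise of 0.90 ± 0.18 (adjusted p = 0.0473). Fasn and Acaca, which build the chain itself, differed by 0.38 ± 0.10 and 0.29 ± 0.10 and did not pass.

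Glycolysis and oxygen sensing showed that order too. Of 24 glycolytic genes 1 rose, the aldolase Aldoc, which read 2.96, 2.78 and 3.19 on the floxed arrays and 3.80, 4.01 and 3.92 on the null arrays, a rise of 0.93 ± 0.12 (adjusted p = 0.01). The list's mean was 4.31, 4.29 and 4.76 on the floxed arrays and 4.79, 4.95 and 4.83 on the null arrays, and its median of 0.38 was 0.03 in the shared-slide pair. The glucose carriers went apart: Slc2a1 read 5.01, 5.13 and 5.88 on the floxed arrays and 6.24, 6.13 and 5.94 on the null arrays and Slc2a3 read 6.53, 6.64 and 5.91 on the floxed arrays and 5.90, 5.93 and 5.89 on the null arrays. In both, floxed array 3 was close to the null arrays, and neither passed (adjusted p = 0.096 and 0.177). Of 21 hypoxia genes only Egln3, an oxygen-sensing prolyl hydroxylase that hypoxia induces, rose (1.27 ± 0.23), while its relative Egln2 differed by -0.19 ± 0.11. The null mean was the higher one in 17 of the 21, 8 of them without overlap of the groups, against 12% over all genes. It was lower in 4, 2 of them without overlap. The median of this list was 0.22, and 0.10 in the shared-slide pair.

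Interferon, 2-cell-like and blood genes were high on floxed array 3. The median of 25 interferon genes was 0.29, and -0.02 in the shared-slide pair. Among them only Xaf1 passed, at 0.67 ± 0.11 (adjusted p = 0.022). Isg15, a ubiquitin-like interferon product, read 0.90, 0.62 and 2.44 on the floxed arrays and 1.84, 1.75 and 1.93 on the null arrays, highest on floxed array 3. In the list of the 2-cell-like state, which a few stem cells enter at a time, 0 of 11 passed with limma, and its median of 0.06 was 0.39 without floxed array 3 and -0.59 in the shared-slide pair. Zscan4c read 2.78, 2.49 and 3.65 on the floxed arrays and 3.06, 3.04 and 3.06 on the null arrays and Zscan4f read 3.31, 3.02 and 4.10 on the floxed arrays and 3.57, 3.51 and 3.64 on the null arrays, and the near-identical copies of this family cannot be told apart by probe with certainty. In both, floxed array 3 was above all null arrays and floxed arrays 1 and 2 were below them. Of 13 blood genes 2 rose, the erythropoietin receptor Epor and the Fc receptor Fcgr2b. Epor read -1.05, -0.91 and -0.23 on the floxed arrays and 0.39, 0.36 and 0.42 on the null arrays, a rise of 1.12 ± 0.19 (adjusted p = 0.0287), and Fcgr2b was above background on 1 of 3 floxed and all null arrays. Tal1, a factor of blood formation, read -3.39, -3.25 and -1.57 on the floxed arrays and -1.52, -1.47 and -1.68 on the null arrays, with floxed array 3 level with the null arrays. The markers of blood and endothelium had 7 of 9 measured, Ptprc and Cdh5 not well above background on all arrays of any group, and summed to 21.7 to 36.7 on the floxed and 20.6 to 36.8 on the null arrays. The highest array of each group lay on the shared slide, and the part of this in the 2 rises was not tested.

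**Figure D3:**
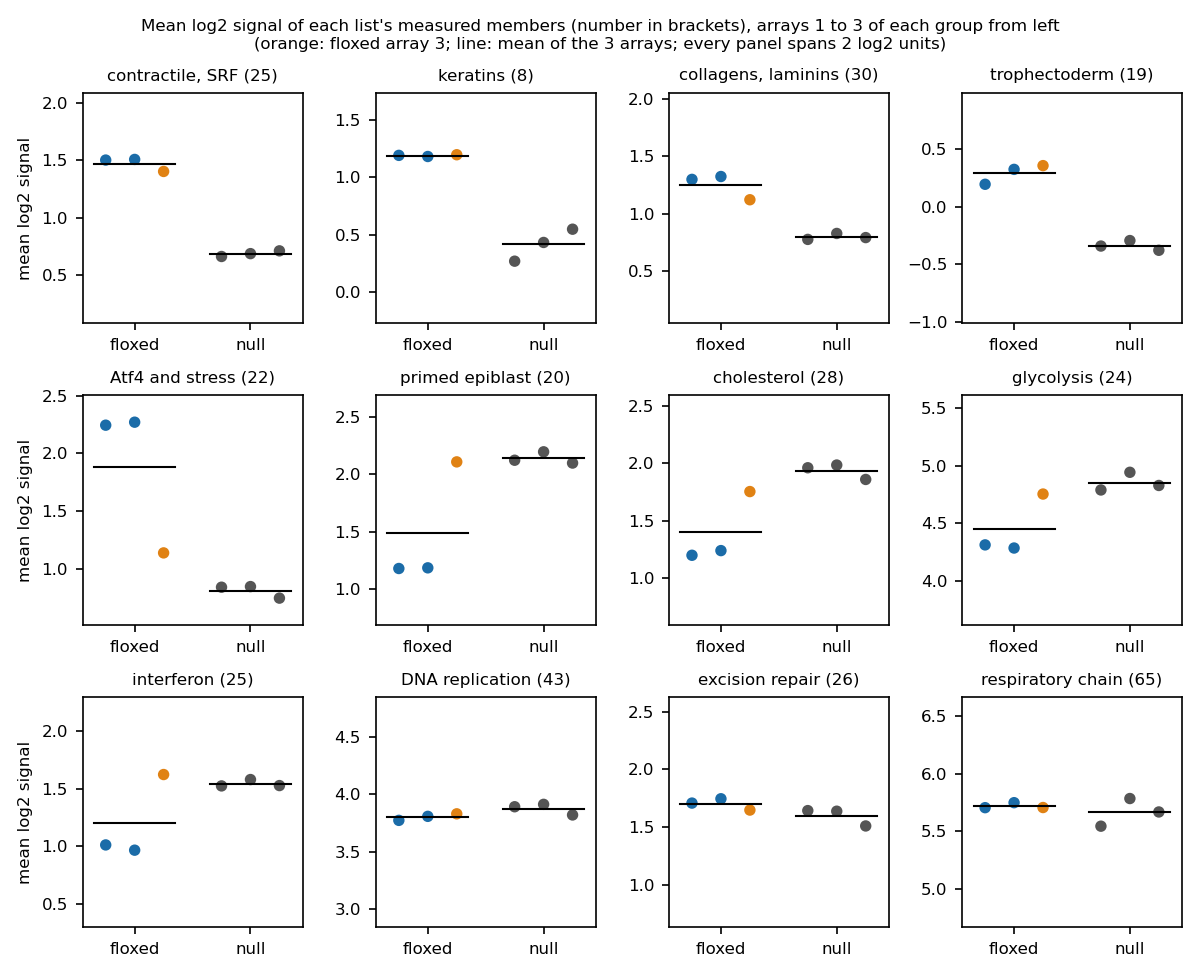
Mean log2 signal of the measured members of 12 lists, relative to the array's 75th percentile, for floxed arrays 1 to 3 and null arrays 1 to 3 from left to right, with floxed array 3 in orange and lines at the mean of each group. In the top row all 3 floxed arrays lie above the null arrays (contractile genes 1.40 to 1.51 against 0.67 to 0.71), and in the middle row and for interferon genes floxed array 3 lies closer to the null arrays (Atf4 genes 1.14 against 2.25 and 2.27). The means of DNA replication run only from 3.77 to 3.91.

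**Figure D4:**
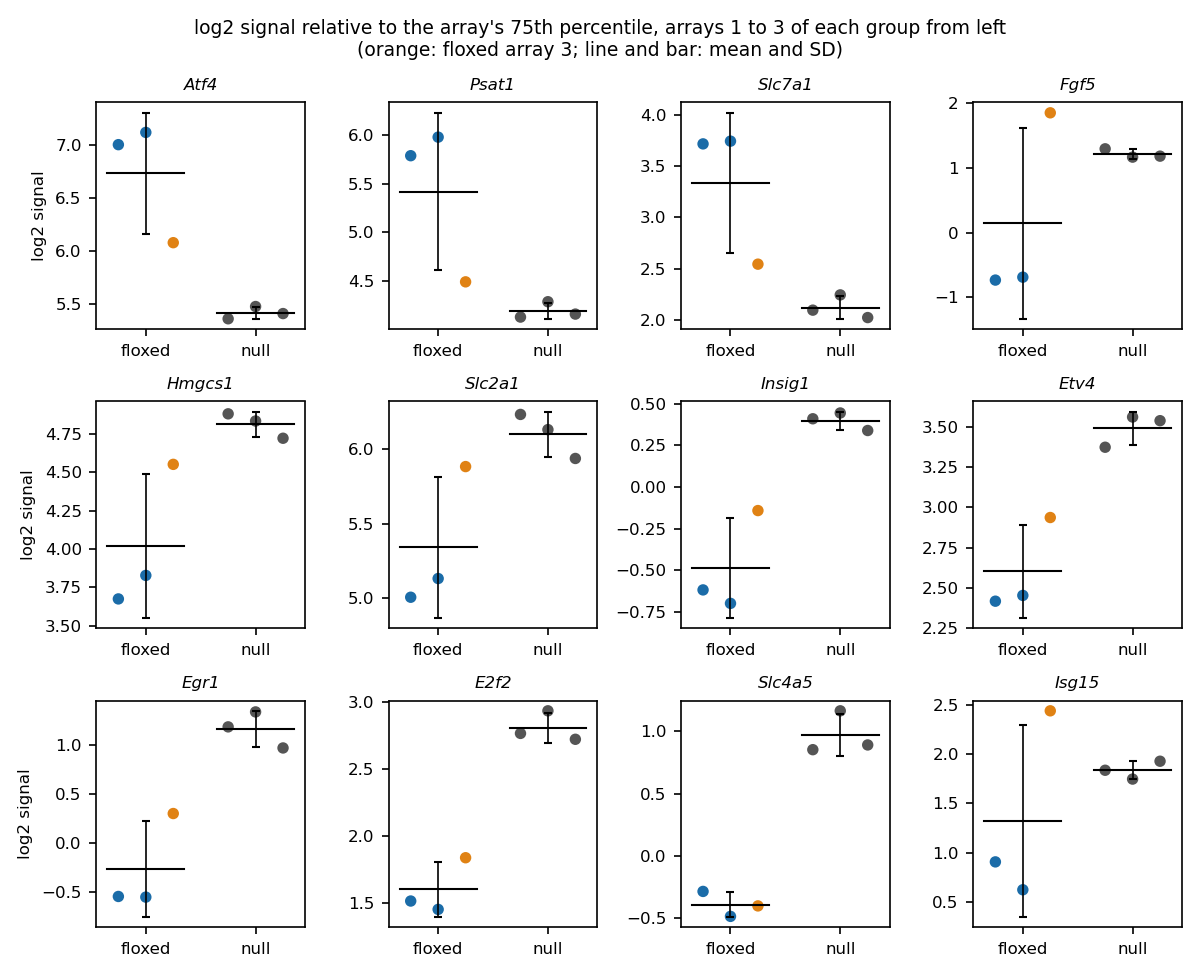
Log2 signal relative to the array's 75th percentile of 12 genes of amino acid supply, the primed state, sterols, glucose uptake, early response, cell cycle, ion transport and interferon, arranged as floxed arrays 1 to 3 and null arrays 1 to 3, with floxed array 3 in orange and the mean and SD of each group in black. Scales differ between panels. Psat1, Slc7a1, Hmgcs1 and Slc2a1 did not pass and show floxed array 3 next to the null arrays, while E2f2 and Slc4a5 passed and show it with the floxed arrays.

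Regulators of the entry into the cell cycle passed in both directions. Of 25 G1 cyclins, E2F factors and Cdk inhibitors 3 rose and 2 fell. Cyclin D1 (Ccnd1) read 1.80, 1.75 and 2.45 on the floxed arrays and 2.99, 3.06 and 2.78 on the null arrays, a rise of 0.94 ± 0.18 (adjusted p = 0.0412), and E2f8, a repressing E2F factor, read 1.23, 1.20 and 1.51 on the floxed arrays and 2.03, 2.16 and 1.76 on the null arrays, a rise of 0.67 ± 0.13 (adjusted p = 0.042). E2f2 rose by 1.20 ± 0.13. The inhibitors of 1 locus fell: Cdkn2b (p15) read -1.24, -1.12 and -1.02 on the floxed arrays and -1.95, -1.94 and -2.02 on the null arrays, a difference of -0.85 ± 0.10 (adjusted p = 0.00506), and Cdkn2a read 2.63, 2.75 and 2.76 on the floxed arrays and 1.88, 2.21 and 2.11 on the null arrays, a difference of -0.65 ± 0.11 (adjusted p = 0.0244). The floxed arrays agree for both, floxed array 3 included. Ccnd2 read -1.59, -1.37 and 0.12 on the floxed arrays and -0.33, -0.37 and -0.37 on the null arrays, with floxed array 3 highest, and did not pass. None of the 43 replication genes or the 31 mitosis genes passed with limma: Mcm2 and Mcm3 differed by -0.03 ± 0.08 and -0.05 ± 0.10, Ccnb1 and Ccnb2 by -0.04 ± 0.09 and -0.20 ± 0.14.

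Of the repair genes, Xpc was the 1 that passed. Of 26 nucleotide excision repair genes only Xpc passed. In the list of Xpc and other genes of its chromosome (12 measured, Xpc among them) again only Xpc passed, and Lsm3 differed by 0.31 ± 0.15. Of 30 p53 targets 2 fell, Xpc, which p53 also induces, and the kinase Plk2, which read -0.67, -0.59 and -0.55 on the floxed arrays and -1.24, -1.20 and -1.16 on the null arrays, a difference of -0.60 ± 0.09 (adjusted p = 0.0159). Mdm2, the p53 target and antagonist, differed by -0.37 ± 0.12 and Trp53 by 0.06 ± 0.13, and neither passed. The null mean was the lower one in 22 of the 30, 8 of them without overlap of the groups, against 11.4% over all genes. It was higher in 8, 0 of them without overlap. The median of the p53 list was -0.14, and -0.12 in the shared-slide pair. Among 40 genes of break, crosslink and mismatch repair and 20 of base excision repair 0 passed, with Atm at 0.31 ± 0.21, Atr at -0.20 ± 0.14 and Ung at 0.09 ± 0.12. The same held for 35 genes of DNA methylation and polycomb (Dnmt1 0.15 ± 0.13, Dnmt3a 0.29 ± 0.16), 39 of Mediator and cohesin (Med1 0.00 ± 0.11), 65 of the respiratory chain (Ndufa1 -0.06 ± 0.14) and 29 antioxidant genes (Nfe2l2 -0.19 ± 0.14).

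Genes were also counted by symbol, in 75 families. Of the 220 solute carriers (Slc) 7 rose and 2 fell, 3.18% and 0.909%. The rises included Slc4a5, a sodium bicarbonate cotransporter, at 1.36 ± 0.11, the fructose carrier Slc2a5 at 0.89 ± 0.14, Slc37a1, a sugar phosphate exchanger, at 0.71 ± 0.14, and Slc43a1. Slc2a5 read -1.81, -1.65 and -2.12 on the floxed arrays and -1.05, -0.79 and -1.06 on the null arrays, and floxed array 3 was its lowest value. The falls were Slc6a9 and Slc25a24, a mitochondrial adenine nucleotide carrier, at -1.33 ± 0.24. Of the 40 potassium channel genes (Kcn) 3 rose (7.5%) and 0 fell, among them Kcnj16 and Kcnn2. Kcnn2, a calcium-activated channel, rose by 0.65 ± 0.12. Kcnj16, an inward rectifier, was above background on 1 of 3 floxed and all null arrays and rose by 1.63 ± 0.28.

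Of the 62 Rab genes, small GTPases of vesicle traffic, 2 rose (3.23%) and 1 fell (1.61%): Rab8b read -0.34, -0.31 and -0.31 on the floxed arrays and 0.23, 0.18 and 0.02 on the null arrays, a rise of 0.47 ± 0.09 (adjusted p = 0.0437), Rab33a rose by 0.81 ± 0.17, and Rab17, of epithelial cells, fell by 1.18 ± 0.23 with 1 of 3 null arrays above background. The other probe of Rab17 differed by only -0.19. Of the 332 Zfp genes 1 rose (Zfp142, 0.70 ± 0.14) and 2 fell, 0.301% and 0.602%, both below the shares over all genes. Zfp703, a transcriptional cofactor, read 0.23, 0.07 and 0.24 on the floxed arrays and -2.20, -2.21 and -1.98 on the null arrays, and with -2.31 ± 0.12 (adjusted p = 0.000387) the floxed arrays agreed closely, floxed array 3 included. Zfp768 fell by 0.65 ± 0.13. Of the 174 Tmem genes 3 rose (1.72%) and 2 fell (1.15%, near the 1.11% over all genes): Tmem151b and Tmem67, a protein of the primary cilium, rose by 0.99 ± 0.19 and 0.56 ± 0.10, and Tmem53 and Tmem191c fell by 0.90 ± 0.18 and 0.69 ± 0.13. The third, Tmem95, was above background on no array of either group and is given no fold. Of 102 ribosomal protein genes 0 passed with limma, but 90 had a lower mean in null cells and 46 lay lower without overlap of the groups, against 11.4% over all genes, with a median of -0.19 and of -0.12 in the shared-slide pair. Of 59 olfactory receptor genes (median -0.04) 0 passed with limma and 2 lay lower without overlap. Outside the 49 lists lay 281 of the genes that passed, 217 of them with a usual gene name.

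The genes that passed were spread over the genome. Chromosome medians ran from -0.01 on chromosome 8 to 0.04 on the X chromosome, against 0.01 over all genes. The share that fell was 1.95% on chromosome 16 and 1.68% on chromosome 11, the largest, and 0.26% on chromosome 12, the smallest, where 2 of 768 fell. The X chromosome had 7 rises and 4 falls among 783 genes, and its median was 0.08 without floxed array 3 and -0.02 in the shared-slide pair. By mean level, with the genes cut into 4 equal classes, 2.11% passed in the lowest class, 2.89% and 1.81% in the middle classes and 0.583% in the highest, in which 15 rose and 14 fell.

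**Figure D5:**
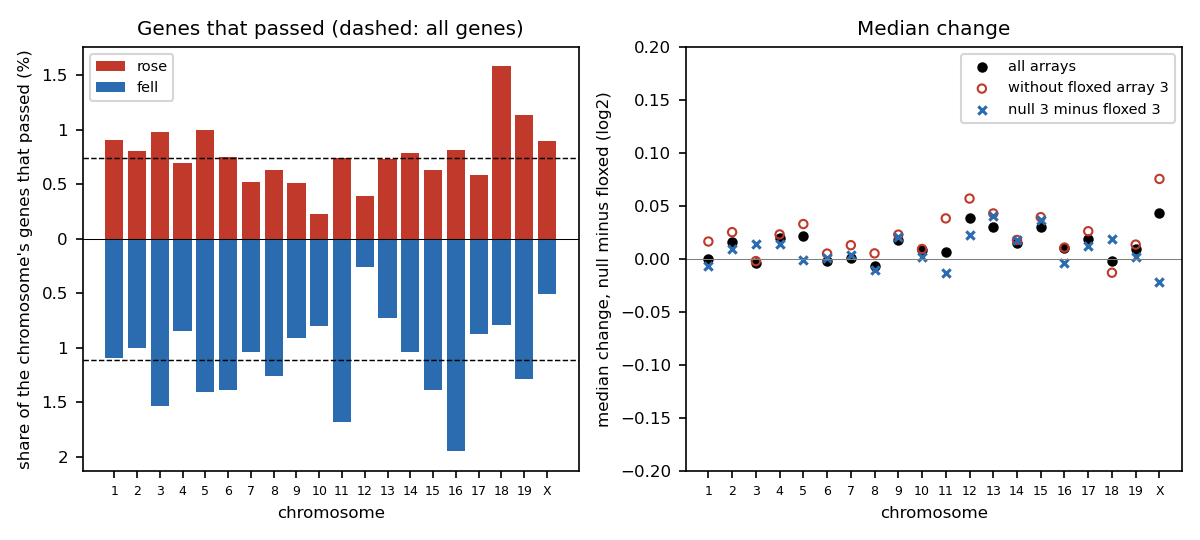
Left, share of the genes of each chromosome that rose (red, upward) or fell (blue, downward), in percent, with dashed lines at the shares over all genes (0.738% and 1.11%). Right, median log2 difference of null minus floxed cells for each chromosome with all arrays, without floxed array 3 and in the pair on the shared slide. The median of the X chromosome without floxed array 3 is the highest point, at 0.08.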

How the data were processed

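Total RNA (50 ng per sample) was labelled with Cy3, per the labels. The deposited scanner files hold linear spot intensity and the submitters' processing notes name Agilent Feature Extraction 10.7.3.1. Their processed signal is background-subtracted and detrended on each array and not scaled between arrays, with a surrogate in place of very low values, per the file headers. Yes-or-no spot qualities are the other deposited values. The deposited series matrix equals the mean signal of the spots for 100% of values (tolerance 1%), and 0 of its columns were left unmatched.

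Control and outlier spots were left out and spots of a probe averaged. Of 55681 probes 27235 were named through RefSeq accessions (GRCm38.p6) and 28446 by the files. Positions of probes are those of mm9 in the files, and exons were not analysed here. Of these probes 27529 were kept and 5 left out for want of a usable spot on some array. Group means of all 9 arrays were fitted with limma 3.58.1 in R 4.3.3 (lmFit, eBayes, two-sided, Benjamini-Hochberg over 19909 genes). Only 3 arrays per group limit the precision. The steps were tested on simulated data.

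The members and lists were chosen with earlier results of these data known. The text names Xpc, up to 4 genes past the threshold per direction in each list, the first 2 measured members of each list, and up to 4 per direction in symbol families with at least 3 past it. Among the genes that passed, 64 with predicted or identifier names were counted but not named. A few genes that this rule selects are not reported here. Lists received no test of their own. Alternatives were other normalization, background correction, filters, probe rules, names, arrays and slide or replicate blocks.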

Additional observations from a re-analysis of the deposited data

How the results depend on the processing

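With all arrays 1.85% of the genes tested passed, 0.738% rose and 1.11% fell. The counts behind these shares stayed within 1.5 times under quantile normalization, centring on the median, the series matrix values, probes above background on all 9 arrays, the mean over the probes of a gene and the names in the files, though the share that rose was 1.13% with the 9-array filter, which tested fewer genes. Normexp background correction gave 570 genes, or 2.86% (1.18% rose, 1.69% fell). Array weights gave 6006 genes, or 30.2% (16% and 14.2%), no filter on dim probes 76, or 0.217% (0.0286% and 0.188%), and only the 6 arrays in the fit 82, or 0.412% (0.1% and 0.311%). The slide as a block gave 50 genes, or 0.251% (0.0452% and 0.206%), and as a random block 103, or 0.517% (0.0904% and 0.427%). Leaving out both arrays of the shared slide gave 4983 genes, or 25% (12.8% and 12.2%). Leaving out 1 array at a time gave 0.397% to 24.8% passed, 0.0502% to 13.1% rose and 0.347% to 11.8% fell, with the highest shares without floxed array 3. The cause was not tested.

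The replicate number as a block gave 166 genes, or 0.834% (0.231% rose, 0.603% fell). Numbers shared by the groups did not pair the arrays: deviations of same-numbered arrays correlated at 0.09, -0.04 and 0.09.

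Of 100 named genes that passed, 0 turned direction under any of these alternatives, while up to 84 lost their call (slide block). Bmp1, which did not pass, turned to -0.89 as the mean over its probes, where it passed. Among 78 named genes that did not pass, up to 30 changed sign without passing, and among the 49 list medians up to 15 changed sign, both under the slide block. Of the 15 list medians over 0.2 in size only that of interferon genes did so, under that block. Signal over background limits dim genes: 28 genes that passed lay above background on no array of their lower group. With probes above background on all 9 arrays 81 of the 100 had a value.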
